A study of Mus musculus with 8 samples.

Results

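The genes described here encode 9 proteins grouped as corepressors and coactivators of nuclear receptors. Through such proteins receptors such as those for retinoic acid turn genes off or on. Whether each of the 9 acts with those receptors in these cells was not measured. The genes are Rcor3, Rcor1, Ncor1 and Nrip1 among the corepressors, and Ncoa1, Ncoa2, Ncoa3, Ep300 and Crebbp among the coactivators. They were taken by symbol, 9 of the 51826 genes in the count table, and they were chosen on the difference between tRA and control in these mice, with earlier results known. That difference is therefore given for the 9 genes as a description, with no test. The levels of the genes relative to each other were not used in the choice, and they were tested.

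Total splenocytes of 8 Balb/c mice were profiled by RNA sequencing, 4 mice that received all-trans retinoic acid (tRA), which the body makes from vitamin A and which binds the retinoic acid receptors, and 4 control mice. All 8 were female, were dosed daily by mouth from weaning, and were killed at 3 months of age with no pristane, the oil that induces lupus in this strain. The tRA dose was 1 mg/kg body weight. The paper describes the controls of this experiment as dosed with vehicle, and its methods name canola oil as the vehicle for tRA, whereas the treatment text of the labels lists the tRA dose for all 8 mice, and the grouping follows the sample titles. Total counts on genes ranged from 30919272 to 37539631 in the control libraries and from 31810417 to 35165876 in the tRA libraries. Any level in splenocytes depends both on how many cells of each type were present and on the RNA in each cell, and these cannot be told apart.

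Retinoic acid receptors bind DNA as pairs with retinoid X receptors. Without ligand the pair holds corepressor complexes that carry histone deacetylases, and with ligand it releases them and binds coactivators that carry or recruit histone acetyltransferases. In the spleen the same cofactors serve many other transcription factors of lymphocytes and macrophages, so they are not particular to the retinoid response.

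All 9 genes passed the filter on low counts, with 544 or more counts in every library. Of the 16484 genes tested between tRA and control, edgeR's quasi-likelihood test gave 0 with a false discovery rate (FDR) under 0.1, or 0%. It gave 1070 at an unadjusted p under 0.05, or 6.49%. With 1 mouse left out this count ran from 657 of 16732 without tRA mouse 4 to 2105 of 16683 without tRA mouse 1. DESeq2 gave 27 of 13625 with an FDR under 0.1, or 0.198%. On counts simulated with the same dispersion for every gene, DESeq2 made more false calls than its nominal rate. Dispersion differs between genes in real counts, so whether its calls here keep to that rate was not tested. The 9 genes contributed 0 to either count at an FDR under 0.1. The groups did not overlap for 1 of the 9 genes, Rcor3, with every tRA mouse above every control mouse. That was so for 315 of the genes tested, or 1.91%, and every tRA mouse was below every control mouse for 269, or 1.63%. Since this contrast was known when the genes were chosen, nothing is read from these counts.

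Rcor3 encodes a member of the CoREST family, scaffolds that join the histone demethylase Kdm1a to the histone deacetylases Hdac1 and Hdac2. It is ENSMUSG00000037395 in the table and lies on the minus strand at chr1:192098546-192138062 of GRCm38. Its level was 16.9, 18.1, 16.4 and 17.6 CPM (counts scaled to a common library size) in control mice 1 to 4, and 20.8, 20.9, 20.5 and 22.0 CPM in tRA mice 1 to 4. The lowest tRA mouse was above the highest control mouse, and the mice within each group lay close together. The means were 17.2 ± 0.764 CPM in control mice and 21.0 ± 0.645 CPM in tRA mice (SD, n = 4 each), a log2 fold change of 0.29 with a standard error of 0.0752. The SD of Rcor3 within groups was 0.0548 on the log2 CPM scale, against a median of 0.196 over all genes tested, and 2.75% of those genes varied less. The fold change was recomputed under 15 other settings, 8 of which omitted 1 mouse, and it stayed between 0.25 and 0.31 on the log2 scale. These settings draw on the same mice, and the genes were chosen with this contrast known, so the range is a description only.

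Rcor1, which encodes CoREST itself, is ENSMUSG00000037896 and lies on the plus strand at chr12:111039351-111115901. Its level was 76.1, 77.3, 56.2 and 78.0 CPM in control mice 1 to 4 and 68.7, 76.7, 75.9 and 77.7 CPM in tRA mice 1 to 4. The groups overlapped almost wholly, and control mouse 3 lay far below the other 7 mice. The log2 fold change was 0.056 with a standard error of 0.103, so the difference was smaller than its error. It was -0.052 without control mouse 3.

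The share of Rcor3 among the counts of the 3 CoREST genes, Rcor1, Rcor2 and Rcor3, does not depend on library scaling. It was 17.6% in control mouse 1, with a 95% Clopper-Pearson interval of 16.3 to 18.8, then 18.4% (17.1 to 19.8), 22.0% (20.4 to 23.6) and 18.0% (16.7 to 19.5) in control mice 2 to 4. In tRA mice 1 to 4 it was 22.7% (21.2 to 24.2), 21.1% (19.7 to 22.6), 20.8% (19.5 to 22.2) and 21.6% (20.2 to 23.0). These intervals cover counting error only. Every tRA mouse was above control mice 1, 2 and 4, and control mouse 3, in which Rcor1 was low, lay within the tRA range. The mean share was 19.0 ± 2.03% in control mice and 21.6 ± 0.825% in tRA mice (SD, n = 4 each).

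Ncor1 encodes the scaffold that binds unliganded receptors and carries Hdac3. It is ENSMUSG00000018501, on the minus strand at chr11:62316426-62458541, and its level was 302, 296, 220.4 and 329 CPM in control mice 1 to 4 and 258, 294, 300.0 and 389 CPM in tRA mice 1 to 4. The lowest value was that of control mouse 3 and the highest that of tRA mouse 4, and the remaining mice of both groups were mixed. The log2 fold change of Ncor1 was 0.11 with a standard error of 0.143. It was -0.016 without tRA mouse 4.

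Nrip1 encodes a corepressor that binds receptors when their ligand is present. It is ENSMUSG00000048490, on the minus strand at chr16:76287400-76373827, and its level was 48.6, 43.4, 32.1 and 55.1 CPM in control mice 1 to 4 and 43.7, 49.5, 42.8 and 59.2 CPM in tRA mice 1 to 4. As for Ncor1, control mouse 3 was lowest and tRA mouse 4 highest. The log2 fold change of 0.12 had a standard error of 0.157, and the value was -0.013 without control mouse 3.

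Ncoa1, Ncoa2 and Ncoa3 encode the p160 coactivators, which bind receptors that hold their ligand and recruit acetyltransferases. Ncoa1 is ENSMUSG00000020647, on the minus strand at chr12:4247362-4477182, Ncoa2 is ENSMUSG00000005886, on the minus strand at chr1:13139105-13374083, and Ncoa3 is ENSMUSG00000027678, on the plus strand at chr2:165992636-166073242. In control mice 1 to 4 Ncoa1 stood at 76.8, 84.8, 56.9 and 78.7 CPM, and in tRA mice 1 to 4 at 65.1, 78.5, 81.5 and 93.3 CPM. For Ncoa2 the control values were 114, 110.1, 72.7 and 115 CPM and the tRA values 95.5, 101, 98.2 and 127 CPM. For all 3 genes control mouse 3 was the lowest of the 8 mice and tRA mouse 4 the highest. Ncoa3 had 346, 335, 259 and 322 CPM in the control mice and 324, 333, 319.6 and 356 CPM in the tRA mice. The log2 fold changes were 0.10 for Ncoa1, 0.036 for Ncoa2 and 0.078 for Ncoa3, with standard errors of 0.133, 0.144 and 0.0931. All 3 turned negative without control mouse 3, with -0.016 for Ncoa1, -0.11 for Ncoa2 and -0.013 for Ncoa3.

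Ep300 and Crebbp encode the closely related lysine acetyltransferases p300 and CBP, which the p160 proteins recruit. Ep300 is ENSMUSG00000055024, on the plus strand at chr15:81585351-81652077, and Crebbp is ENSMUSG00000022521, on the minus strand at chr16:4081328-4213997. The level of Ep300 was 281, 259, 179 and 322 CPM in control mice 1 to 4 and 245, 261, 269 and 344 CPM in tRA mice 1 to 4. Control values of Crebbp were 197, 192, 139 and 205 CPM, and its tRA values were 195, 187, 187 and 213 CPM. Both genes overlapped between the groups and had control mouse 3 lowest and tRA mouse 4 highest. The log2 fold change was 0.10 for Ep300 and 0.091 for Crebbp, with standard errors of 0.163 and 0.112. Without control mouse 3 these values were -0.047 and -0.027.

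**Figure D1:**
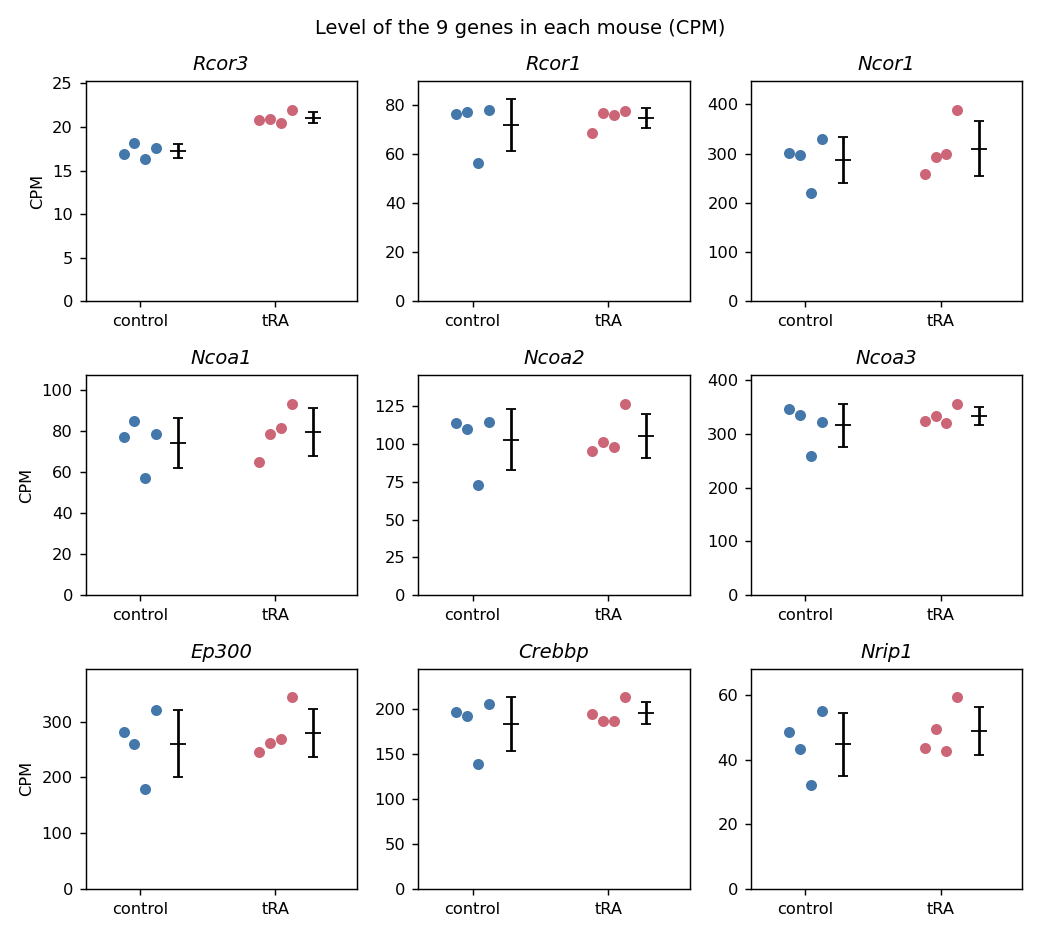
Level of each of the 9 genes in CPM, with 1 point per mouse (4 control in blue, 4 tRA in red) and the mean ± SD of each group in black, each vertical axis starting at 0. The tRA points of Rcor3, from 20.5 to 22.0 CPM, lie above its control points, from 16.4 to 18.1 CPM, and the groups overlap for the other 8 genes.

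All 9 log2 fold changes were above 0, with a median of 0.10, or 0.096 for the 8 genes without Rcor3. Over all genes tested the median was 0.0014, and 50.3% were above 0. The shared sign of the 8 rested on single mice. Control mouse 3 was the lowest of the 8 mice in 8 of these 8 genes, and tRA mouse 4 was the highest in 7 of them. The exception was Rcor1, which was highest in control mouse 4. The median over the 9 genes was -0.016 without control mouse 3 and 0.018 without tRA mouse 4. Leaving out any other mouse raised this median, while single genes moved either way, as Rcor1 was 0.040 without tRA mouse 2. The highest value of each of the 8 genes follows. Without control mouse 4 the log2 fold change was 0.22 for Ep300, 0.15 for Crebbp, 0.24 for Nrip1, 0.097 for Rcor1 and 0.092 for Ncoa2. Without tRA mouse 1 it was 0.19 for Ncor1 and 0.19 for Ncoa1, and the median of the 9 genes was 0.16. Ncoa3 was highest, at 0.13, without control mouse 1.

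The median deviation of the 8 genes from their own means over the mice, on the log2 CPM scale, was -0.43 in control mouse 3 and 0.30 in tRA mouse 4. Rcor3 deviated by -0.17, -0.072, -0.22 and -0.12 in control mice 1 to 4 and by 0.13, 0.13, 0.10 and 0.21 in tRA mice 1 to 4. These values hold the difference between its groups, and within each group control mouse 3 and tRA mouse 4 stood out less than in the median of the other 8 genes. Genes with long transcripts moved the same way in these mice. For the 741 genes tested with a transcript over 8000 bp the median deviation was -0.18 in control mouse 3 and 0.15 in tRA mouse 4, and for the 2190 genes with one of up to 1000 bp it was 0.089 and -0.011. The longest transcripts of the 8 genes ran from 5684 bp for Rcor1 to 10820 bp for Crebbp, the 86.8th to the 98.5th percentile of the genes tested, and that of Rcor3 was 3791 bp, at the 65.7th. An offset for transcript length and GC content lowered the median log2 fold change of the 9 genes to 0.065, that of Rcor3 to 0.25 and that of Ncoa2 to -0.0031, and the standard error of Ncor1 to 0.0936. The part of transcript length in the pattern was not tested beyond this offset.

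**Figure D2:**
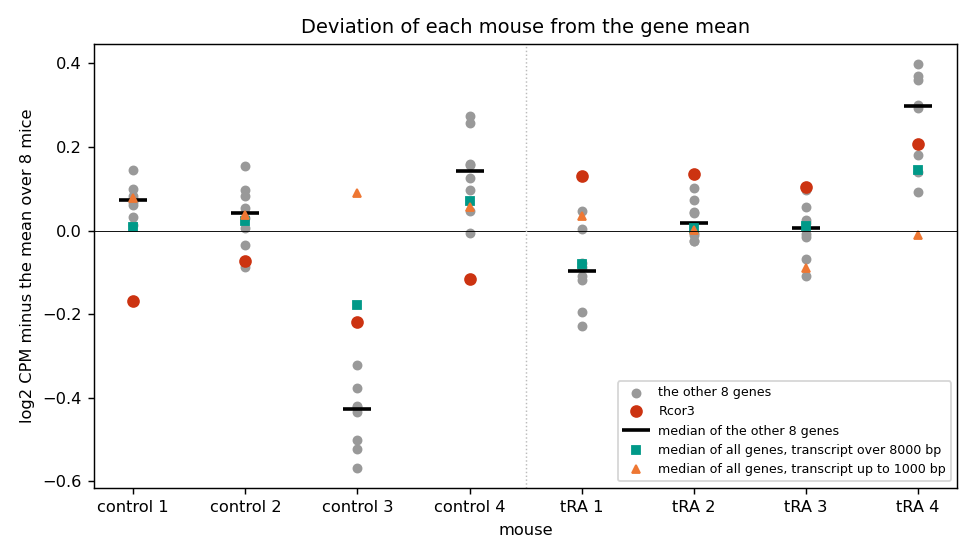
Deviation of each mouse from the mean of the gene over 8 mice, in log2 CPM, for Rcor3 (red), the other 8 genes (grey, with their median as a black bar) and the medians of all genes with a transcript over 8000 bp (green squares) or of up to 1000 bp (orange triangles). The 8 genes have a median of -0.43 in control mouse 3 and 0.30 in tRA mouse 4, where the long transcripts stand at -0.18 and 0.15.

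**Figure D3:**
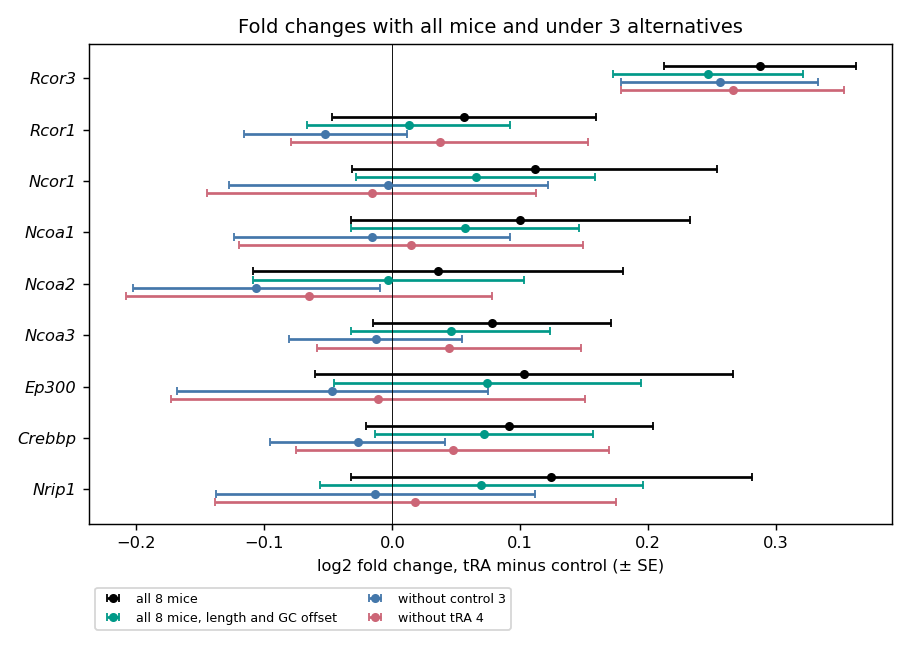
Log2 fold change of tRA over control for each gene, with bars of 1 standard error, over all 8 mice, with the offset for length and GC content, without control mouse 3 and without tRA mouse 4. Rcor3 stays between 0.25 and 0.29, and the other 8 genes lie below 0 without control mouse 3.

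Levels were compared between genes as CPM per kb of exon, the length being the union of all exons of a gene. The order was Ncoa3, Ncor1, Ep300, Crebbp, Rcor1, Ncoa1, Ncoa2, Nrip1 and Rcor3. Ncoa3 stood at 41.1 ± 3.72 CPM per kb (SD, n = 8 mice), Ncor1 at 23.3 ± 3.84, Ep300 at 18.9 ± 3.48 and Crebbp at 14.0 ± 1.64 CPM per kb. Rcor1 followed at 12.9 ± 1.33 CPM per kb, Ncoa1 at 8.97 ± 1.32, Ncoa2 at 6.66 ± 1.04, Nrip1 at 4.09 ± 0.729 and Rcor3 at 1.41 ± 0.157 CPM per kb. Within each mouse the difference between every pair was taken, and 36 of 36 pairs differed by an exact two-sided sign-flip permutation test over 8 mice (p = 0.0078125, adjusted p = 0.0078125). That is the smallest p that 8 mice can give. The test asks whether a difference at a given length recurs from mouse to mouse. It does not measure the error in the length itself, which all mice share. The closest neighbours were Crebbp and Rcor1, which differed by 0.12 ± 0.0792 on the log2 scale, in the same direction in 8 of 8 mice.

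By the union of exons the paralogs of each family stood at different levels. Ncoa3 was 4.61-fold higher than Ncoa1 and 6.22-fold higher than Ncoa2 per kb, Ep300 was 1.34-fold higher than Crebbp, and Rcor1 was 9.18-fold higher than Rcor3. The folds, and for Ncoa1 and Ncoa2 the direction, depend on the length used. The union of exons can be far longer than the longest transcript. Rcor3 has 14 annotated transcripts, with a union of 13622 bp against 3791 bp for the longest. By the longest transcript Rcor3 stood at 5.05 CPM per kb, the lowest mean of the 9, and Rcor1 was 2.55-fold higher. Ncoa3 was then 4.13-fold higher than Ncoa1 and 3.40-fold higher than Ncoa2. Nrip1 was then close to it, with a log2 difference of -0.22 ± 0.240 for Rcor3 minus Nrip1 (SD, n = 8), and Rcor3 was the lower in 7 of 8 mice (exact sign-flip permutation test, p = 0.0391, adjusted p = 0.0402). Control mouse 3 was the exception. By that length Ncoa2 was above Ncoa1, with a log2 difference of -0.28 for Ncoa1 minus Ncoa2 in place of 0.43, and 35 of the 36 pairs differed. The remaining pair was Rcor1 and Ncoa2, with a log2 difference of 0.027 (exact sign-flip permutation test, p = 0.539, adjusted p = 0.539).

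**Figure D4:**
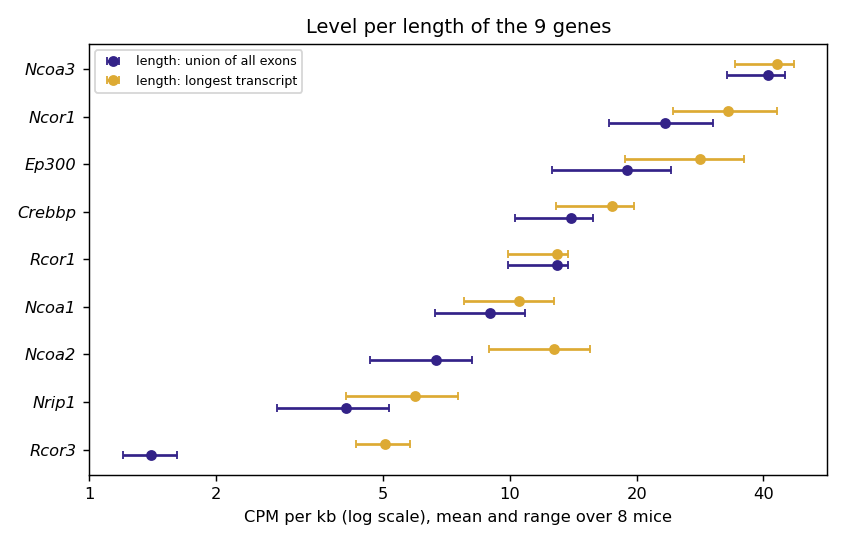
Level of the 9 genes in CPM per kb on a log scale, as the mean (point) and range (bar) over 8 mice, with the union of all exons (dark blue) or the longest transcript (yellow) as the length. Ncoa3 has the highest mean and Rcor3 the lowest by both lengths, and Ncoa1 and Ncoa2 change places.

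Exons of 6 of the 9 genes overlap another annotated gene, and whether the counting used the strand is not given in the sources used here. Rcor3 shares 667 bp with Gm26879, 336 bp with Gm10516 and 133 bp with Gm37055, all on the other strand. These 3 had at most 6 counts in any mouse, against 544 to 755 for Rcor3. Ncoa3 shares 154 bp with Sulf2, and Ncor1 shares 82 bp with Pigl and 1 bp with Ttc19, on the other strand, so reads from these stretches cannot be told apart without strand.

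With the group means removed, the genes whose level followed Rcor3 most closely over the 8 mice were Megf9, Sgms2, Mttp, Gab2 and Cers6, with Pearson correlations of 0.98, 0.98, 0.97, 0.96 and 0.96 among 13577 genes with a mean of at least 1 CPM. For the other 8 members the correlation with Rcor3 ran from 0.70 for Rcor1 to 0.80 for Ncoa2, at rank 799 and rank 273. The correlations are a description over mice that share library preparation and the length pattern above. Within groups Rcor3 varied little, with an SD of 0.0548 on the log2 CPM scale, so there was little variation to follow. The highest of 13577 correlations over 8 mice can also be high by chance. Whether any of these genes varies with Rcor3 was not tested.

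The partners of the 9 genes were described from 5 lists of the NCoR complex, the CoREST complex, other corepressors, other coactivators and retinoid receptors. Of their 47 genes 46 were tested, all but Rxrg. Of these, 0 had an FDR under 0.1 by edgeR or by DESeq2 and 1 had an unadjusted p under 0.05 in edgeR, against 6.49% of all genes tested. With 1 mouse left out the latter count ran from 0, without tRA mouse 2 or tRA mouse 4, to 4 without tRA mouse 1. Over all mice the median log2 fold change of the 46 genes was 0.019, with 28 values above 0 and 18 below. In the NCoR complex Tbl1x, a subunit that binds Ncor1, had the highest log2 fold change, 0.19 with a standard error of 0.0689 (edgeR FDR 0.757), and Hdac3 the lowest, -0.11 (edgeR FDR 0.808). Tbl1x stood at 90.0, 91.6, 79.4 and 90.7 CPM in control mice and at 96.1, 101, 96.1 and 107 CPM in tRA mice, so its groups did not overlap. The same held for Gps2, another subunit, at 0.11, and in the other direction for Pelp1 among the coactivators, genes chosen after their values were seen. Over the 46 genes this makes 2 with every tRA mouse above and 1 with every tRA mouse below, against 1.91% and 1.63% of all genes tested.

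The CoREST complex ran from 0.14 for Gse1 (edgeR FDR 0.867) to -0.42 for Rcor2, another CoREST gene (2.54 ± 0.822 CPM in control and 1.91 ± 0.315 CPM in tRA mice, edgeR FDR 0.792). Other corepressors ran from 0.21 for Lcorl (edgeR FDR 0.849) to -0.096 for Lcor (edgeR FDR 0.901). Other coactivators ran from 0.15 for Med1, a Mediator subunit (edgeR FDR 0.860), to -0.15 for Prmt1, an arginine methyltransferase (edgeR FDR 0.778). Among the receptors Rarb had 0.43 (edgeR FDR 0.776) at 1.41 CPM in control and 1.90 CPM in tRA mice, and Rarg had -0.054 (edgeR FDR 0.914). Several of these values depended on single mice. Without control mouse 3 the log2 fold change was 0.0086 for Gse1, 0.069 for Lcorl, 0.013 for Med1, -0.055 for Hdac3 and -0.013 for Rarg, and without control mouse 1 that of Rcor2 was -0.24. With 1 mouse left out Gse1 reached 0.24, Med1 0.24 and Lcorl 0.33, Lcor ran from -0.17 to 0.0074 and Rarg from -0.13 to -0.013. With the length and GC offset Lcorl had 0.075, Lcor -0.17, Prmt1 -0.090 and Rarg 0.011, and with the replicate block as well Rcor2 had -0.28. A list of 6 genes that retinoic acid is known to induce did not hold Rarb, which is given above with the receptors at 0.43. Of these 6 genes 4 were tested, with a median log2 fold change of -0.26, 1 value above 0 and 3 below. By edgeR 0 of the 4 had an FDR under 0.1, and 0 had an unadjusted p under 0.05. DESeq2 gave no FDR for Stra6 and Crabp2, and those of Dhrs3 and Tgm2 were not under 0.1. The log2 fold change of Dhrs3 was 0.066, and Crabp2 and Stra6 stood under 1 CPM with standard errors of 0.389 and 0.408. The most abundant of them, Tgm2, had 30.9 CPM in control and 27.5 CPM in tRA mice, and Cyp26a1 and Cyp26b1 fell below the filter.

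Cell type markers were summed to show what the splenocytes held. B cell markers, 6 of 6 tested, summed to 5882 ± 472 CPM in control and 5916 ± 77.4 CPM in tRA mice, with Cd79a most abundant. T cell markers, 7 of 7, summed to 992 ± 101 and 1089 ± 32.7 CPM, led by Cd4, and macrophage and monocyte markers, 6 of 6, to 987 ± 222 and 1041 ± 111 CPM, led by Lyz2. Markers of all 3 were thus present in every mouse, with overlapping groups, as the label of total splenocytes states. Erythroid markers, 5 of 6, gave 1241 ± 790.1 and 1682 ± 1369 CPM, led by Hbb-bs, and stromal and endothelial markers, 5 of 5, gave 247 ± 5.40 and 247 ± 5.02 CPM, led by Pecam1. No marker was at 0 in all mice.

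Beside Rcor3, 2 marker lists had groups that did not overlap. Neutrophil precursor markers, 6 of 6 tested, summed to 538, 675, 711 and 609.7 CPM in control mice 1 to 4 and to 240.4, 299, 326 and 474 CPM in tRA mice 1 to 4, led by Ngp at 325 and 171 CPM. Of these 6 genes 0 had an FDR under 0.1 by edgeR, 4 did by DESeq2, and 6 had an unadjusted p under 0.05 in edgeR, against 6.49% of all genes tested. For 4 of the 6 every tRA mouse was below every control mouse, against 1.63% of all genes tested. The paper's own significant genes from these mice include Ngp and other markers of this list. This list and the other marker lists were chosen with earlier results of these data known. Their counts beside the shares of all genes tested are therefore a description and no test of enrichment. Plasma cell markers, 5 of 5, summed to 693, 652, 735 and 839 CPM in control mice and to 471, 647, 527 and 537 CPM in tRA mice, led by Jchain. By edgeR and by DESeq2 0 of the 5 had an FDR under 0.1, and 3 had an unadjusted p under 0.05 in edgeR (6.49% of all genes tested). Most of the sum was Jchain, which overlapped between the groups, at 537 CPM in control mouse 2 and 541 CPM in tRA mouse 2, and Prdm1 had a log2 fold change of 0.11. For 3 of the 5, Mzb1, Sdc1 and Tnfrsf17, every tRA mouse was below every control mouse, with log2 fold changes of -0.31, -0.17 and -0.78 (1.63% of all genes tested were below in this way). Genes named here beside Jchain were picked after their values were seen. Both sums were lower in every tRA mouse, the opposite direction to Rcor3. Immediate early genes, which respond to handling of cells, summed to 12523 ± 1132 and 8287 ± 3367 CPM with overlap, led by Fos over the 8 mice. For 3 of these 6 genes, Fosb, Jun and Egr1, every tRA mouse was below every control mouse, again against 1.63% of all genes tested. By edgeR 0 of the 6 had an FDR under 0.1, by DESeq2 2 did, Jun and Egr1, and 3 had an unadjusted p under 0.05 in edgeR, against 6.49%. These genes were named after their values were seen. The part of these cells or of handling in the level of Rcor3 was not tested.

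RefSeq promoter windows of 300 bp (GRCm38.p6, 250 bases before to 50 after a start) were found for 7 of the 9 genes, 9 windows in all. There was no window for Ncoa2 and Ncoa3. Both strands were searched for the receptor half-site AGGTCA, for its variants GGGTCA and also AGTTCA and also GGTTCA, and for the GC box GGGCGG. Any of the 4 half-sites was in 2 of the 9 windows, of Ncor1 and Nrip1, against 43.7% of 32851 windows of all genes. AGGTCA itself was in 0 of the 9, against 16.3%, and the repeat of AGGTCA with a gap of 1, 2 or 5 bases was in 0, where 0.0396%, 0.00913% and 0.00913% of all windows hold it, so 0 of 9 says nothing of these genes. The GC box was in 7 of the 9, against 35.7%. A match is a description of letters and not of binding.

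The stretches before the start of Rcor3, whose groups did not overlap, of its paralog Rcor1, whose groups did, and of Nrip1, which holds half-sites, are printed for comparison. They lie at chr1:192138063-192138290 on the minus strand, chr12:111039117-111039350 on the plus strand and chr16:76373828-76374077 on the minus strand, outside the annotated genes. Capitals mark GC boxes in Rcor3 and Rcor1 and half-sites in Nrip1, on either strand.
Rcor3: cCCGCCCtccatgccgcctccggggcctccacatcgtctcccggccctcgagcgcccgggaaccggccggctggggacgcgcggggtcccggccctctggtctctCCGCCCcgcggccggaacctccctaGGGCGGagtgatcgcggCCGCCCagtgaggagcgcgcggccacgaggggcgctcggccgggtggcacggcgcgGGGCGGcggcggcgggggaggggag
Rcor1: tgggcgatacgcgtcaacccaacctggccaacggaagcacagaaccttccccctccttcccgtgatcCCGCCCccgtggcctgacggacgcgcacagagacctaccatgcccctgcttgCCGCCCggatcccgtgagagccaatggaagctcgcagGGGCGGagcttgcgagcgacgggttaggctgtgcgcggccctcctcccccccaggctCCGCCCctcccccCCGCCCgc
Nrip1: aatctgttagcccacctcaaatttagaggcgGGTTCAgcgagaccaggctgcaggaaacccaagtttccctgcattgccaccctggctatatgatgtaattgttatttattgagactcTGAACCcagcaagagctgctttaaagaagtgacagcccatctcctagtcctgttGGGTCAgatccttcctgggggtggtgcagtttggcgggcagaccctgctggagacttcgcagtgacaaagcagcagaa
Rcor3 and Rcor1 each have 5 GC boxes and 0 half-sites in these stretches, and Nrip1 has 0 GC boxes and 3 half-sites. The GC content of the whole window around each stretch was 81.7% for Rcor3, 69.3% for Rcor1 and 52.7% for Nrip1, against a median of 52.7% over all windows. The other window of Nrip1, at chr16:76373000-76373299 within the annotated gene, was GC-rich as well, with 73.3% GC, 2 GC boxes and 0 half-sites.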

How the data were processed

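RNA sequencing libraries (TruSeq v2) of total splenocytes from 8 mice were compared, 4 tRA against 4 control. The authors deposited raw counts per gene. The paper names Bowtie2 and Tophat2 with HTSeq, while the submitters' processing notes name STAR 2.5.2b, featureCounts 1.5.1 and GRCm38, and which of these made the counts is not given in the sources used here. The deposited DESeq2 comparison (mean of normalized counts, fold changes and p-values; DESeq2 1.26.0 in the notes) was not used.

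Symbols, positions and lengths came from GENCODE M21, which held 51633 of the 51826 identifiers and lacked 193. The fit used edgeR 4.0.16 under R 4.3.3 (filterByExpr with a minimum count of 10, TMM, quasi-likelihood test, Benjamini-Hochberg FDR under 0.1 over 16484 genes) and DESeq2 1.42.0 as an alternative. The fits were tested on data simulated with the same dispersion for every gene, unlike real counts. There the share of false calls was near the nominal rate with edgeR and above it with DESeq2. CPM used TMM-scaled library sizes, and log2 CPM had 0.5 reads at the mean depth added. Figures were drawn with matplotlib 3.10.9 in Python 3.11.15. Levels per kb were compared by an exact sign-flip test over 36 pairs. Between mice of a group, chi-square over degrees of freedom was 14.1 to 72.5, above sampling noise.

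The 9 members and the gene lists were chosen with earlier results of these data known. Named genes were the members, the 5 genes most like Rcor3, the highest and lowest log2 fold change in each of the 5 partner lists, and the most abundant gene of each target and marker list. Gps2, Pelp1, Mzb1, Sdc1, Tnfrsf17, Prdm1, Fosb, Jun, Egr1, Dhrs3, Stra6 and Crabp2 are outside this rule and were named after their values were seen. Alternatives were RLE size factors, DESeq2, no filter, at least 10 counts in every sample, a block for the replicate number, an offset by loess (span 0.3, degree 1) for length and GC content, this offset with the block, each mouse left out, and for levels the longest transcript and a pseudocount of 1 CPM.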

Additional observations from a re-analysis of the deposited data

Results flagged for a closer look

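In 38 groups of 4 mice (the 9 members and the 10 named partner genes, each in control and in tRA), 4 had a mouse far from the other 3, where chance gives about 1.9. Control mouse 3 was low for Rcor1, at 56.2 CPM against 76.1 to 78.0 CPM in the other control mice, and for Ncoa2, at 72.7 CPM against 110.1 to 115 CPM. It was also low for Tbl1x, at 79.4 CPM against 90.0 to 91.6 CPM. For Prmt1 tRA mouse 1 was high, at 67.6 CPM against 60.5 to 61.6 CPM.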

How the results depend on the processing

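Of 420 values recomputed under the alternatives, 17 changed sign and 3 counts moved by over 1.5 times. The sign changed for 12 log2 fold changes of members, 1 median of the members, 3 log2 fold changes of partner genes and 1 difference in level. Those of the members were all 8 other than Rcor3, and the median, without control mouse 3, then Ncor1 (-0.016), Ncoa2 (-0.065) and Ep300 (-0.011) without tRA mouse 4, and Ncoa2 (-0.0031) with the length and GC offset. The number of genes with an FDR under 0.1 was 0 with edgeR, 27 with DESeq2 and 6 with no filter on low counts, and leaving out 1 mouse gave 0 to 3, with 3 without tRA mouse 4. The cause was not tested. The log2 fold change of Rarg was 0.011 with the length and GC offset and 0.017 with this offset and the replicate block, and that of Lcor ran from -0.17 to 0.0074 with 1 mouse left out, the highest without control mouse 4. For these 2 genes the cause was not tested. Ncoa1 minus Ncoa2 was -0.28 with the longest transcript, which changes the length only. The median of the 9 members ran from -0.016 to 0.16 with 1 mouse left out. Over all genes tested the replicate numbers did not clearly pair the mice. Deviations of same-numbered mice correlated at 0.14, -0.021, -0.017 and 0.25, and 3 of 8 mice were closest to their own number. For the members other than Rcor3 the replicate block lowered the standard error, as for Nrip1 from 0.157 to 0.0960. It raised that of Rcor3 from 0.0752 to 0.0835. With the replicate block 0 genes had an FDR under 0.1 (1200 at an unadjusted p under 0.05, against 1070 without it), 0 of the partner genes did, and the median of the 9 members was 0.11, or 0.065 with the offset as well. Depth limits Stra6, Crabp2 and Tnfrsf17 most among the named genes tested, with 0.404, 0.576 and 1.08 CPM in tRA mice.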
